A study of Mus musculus with 12 samples.

Results

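The cytosolic heat shock chaperones were examined as a set of 10 genes in mouse bone marrow neutrophils cultured with bile acids. The members were Hspa8, Hspa1a, Hspa1b and Hspa1l of the HSP70 family, Hsp90aa1 and Hsp90ab1 of the HSP90 family, the HSP40 gene Dnajb1, the HSP110 gene Hsph1, the small heat shock protein gene Hspb1 and the heat shock transcription factor gene Hsf1. They are the rows with these gene names in a table of 29737 genes, and all 10 were listed. The neutrophils came from healthy wild-type mice, which the methods of the study describe as female C57BL/6 animals a few weeks old, and all samples were cultured for 24 h. The PBS group received the vehicle, and the other groups received taurocholic acid (TCA) at 200 μM, glycocholic acid (GCA) at 200 μM, or tauro-β-muricholic acid (Tβ-MCA). For Tβ-MCA the labels give 10 μM and the methods 200 μM, so its dose is uncertain and it was compared with PBS alone. There were 4 groups of 3 samples, and the labels number the PBS samples 3, 5 and 6 and those of every bile acid 3, 4 and 5. Nothing in the labels or methods says whether these came from separate mice, so the p-values measure the spread between these samples, which may be technical. The labels describe sorted Ly6G+ cells and the methods a separating medium with an enrichment kit.

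Total counts were between 32757389 and 41375925 per sample. The 12 neutrophil markers, among them Ly6g, S100a8, Mmp8 and Cxcr2, were detected in every sample and summed to 39880 to 61350 CPM (counts scaled to the size of the library), whereas 7 erythroid markers summed to 1.18 to 3.22 CPM and 6 T and NK cell markers to 1.83 to 3.41 CPM. Most of the neutrophil sum came from S100a9 and Ngp, which averaged 22960 and 16030 CPM with PBS. Ly6g had 7.54 to 21.4 CPM over all samples. B cell markers (8 genes) summed to 8.48 to 18.5 CPM, monocyte and macrophage markers (13 genes) to 439.8 to 1396 CPM, eosinophil and basophil markers (7 genes) to 59.1 to 250.0 CPM, and granulocyte precursor markers (6 genes) to 2528 to 3067 CPM. The labelled cell type was thus present in all libraries, beside transcripts that mark monocytes, eosinophils and precursors. Of the precursor list, the cell cycle genes Mki67 and Top2a averaged 1902 and 570.7 CPM with PBS. Both were above Ly6g, and Mki67 was above S100a8 (1633 CPM). Sums over different genes do not give the shares of these cell types.

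HSP70 and HSP90 proteins bind unfolded or unstable client proteins in the cytosol and release them in cycles driven by ATP. J-domain proteins such as DNAJB1 deliver clients to HSP70 and stimulate its ATPase, HSP110 proteins such as HSPH1 act as nucleotide exchange factors, and small heat shock proteins hold unfolded proteins without ATP. Hspa8 and Hsp90ab1 are the constitutively expressed forms, while Hspa1a, Hspa1b, Hsp90aa1, Dnajb1, Hsph1 and Hspb1 are classic targets of HSF1, which is released from chaperones and binds heat shock elements when unfolded proteins build up.

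Coordinates are those of the deposited table on GRCm38. Hspa1b (chromosome 17, 34956436 to 34959238, minus strand), Hspa1a (chromosome 17, 34969190 to 34972156, minus strand) and Hspa1l (chromosome 17, 34972703 to 34979285, plus strand) lie side by side, and Hsp90ab1 lies elsewhere on the same chromosome (45567775 to 45573271, minus strand). Hspa8 was placed on chromosome 9 (40800984 to 40810087, plus strand), Hsph1 on chromosome 5 (149614287 to 149636376, minus strand) and Hsf1 on chromosome 15 (76477445 to 76500972, plus strand). The span of 9 of the 10 members was the same in GENCODE vM21, the exception being Hsf1. All 10 are protein-coding genes, and the counts are of reads on their exons.

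The heat shock element is built from alternating GAA and TTC units, and the promoters of 6 of the 10 members were found in RefSeq's promoter windows for GRCm38.p6 (250 bases before to 50 after a listed start). The 2-unit forms GAANNTTC and TTCNNGAA were searched; each reads the same on both strands, and a pair of forms can overlap in a longer element. The matched stretches are shown because HSF1 binds this element. Upstream of the listed start, Hspa1a and Hspa1b each held 1 match at the same distance, in an identical 30-base stretch, Hspb1 held 2, and Hsph1 held 1, which was the same match for both of its listed starts. This Hsph1 match lies inside the span of the gene in the deposited table, which reaches 149636376. It is thus upstream only of the starts listed by RefSeq. The capitals mark the matched bases, and each stretch is written 5′ to 3′ on the strand of the gene.
Hspa1a (chr17:34972242-34972271, minus strand, match starting 104 bases before the start): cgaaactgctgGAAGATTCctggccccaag
Hspa1b (chr17:34959324-34959353, minus strand, match starting 104 bases before the start): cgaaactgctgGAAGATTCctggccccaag
Hspb1 (chr5:135887791-135887820, plus strand, match starting 117 bases before the start): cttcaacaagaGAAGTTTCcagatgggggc
Hspb1 (chr5:135887811-135887840, plus strand, match starting 97 bases before the start): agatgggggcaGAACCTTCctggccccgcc
Hsph1 (chr5:149636351-149636380, minus strand, match starting 54 or 33 bases before its listed starts): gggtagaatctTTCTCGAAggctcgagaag
Among all 32851 windows, 7.86% held GAANNTTC, 8.52% held TTCNNGAA and 15.06% held either form, so a match is common. A run of at least 3 alternating units was present in 0.6% of all windows and, among the members, only in Hsph1, after its start. The windows of Dnajb1 and Hspa1l held no match, which says only that these letters are not in those windows.

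The constitutive members dominated. The mean deposited RPKM over the 12 samples was 553.9 for Hsp90ab1 and 303.9 for Hspa8, which ranked 70th and 147th of all 29737 listed genes. Hsp90aa1 followed at 69.3 RPKM and Dnajb1 at 19.8 RPKM, above 97.2% and 90.5% of the listed genes. Hsf1 (4.59 RPKM) and Hsph1 (2.86 RPKM) were intermediate, and the inducible HSP70 genes were low, with 1.26 RPKM for Hspa1b and 0.58 RPKM for Hspa1a. Hspa1l, an HSP70 gene best known from the testis, had 0.213 RPKM. Hspb1 had 0.0731 RPKM and between 0 and 4 counts in every sample, so that most samples were at or below the 3 counts taken as the limit of detection, and it was at 0 in Tβ-MCA replicate 5 and GCA replicate 5.

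**Figure D1:**
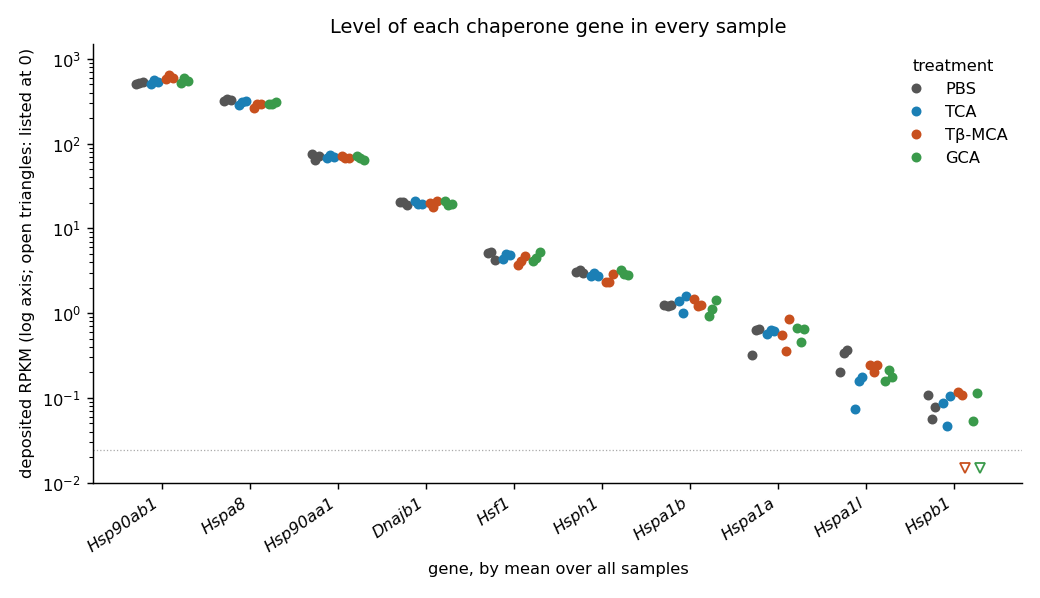
Deposited RPKM (log axis) of the 10 chaperone genes in each of the 12 samples, colored by treatment, in order of their mean; open triangles mark samples listed at 0. The levels of Hsp90ab1 lay between 501.5 and 649.0 RPKM and those of Hspa1a between 0.321 and 0.85 RPKM, and the groups intermingle within most genes.

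This order held within every sample for the 8 most abundant members, since the RPKM ranges of neighbors in the order did not overlap over the 12 samples. For example, Hsf1 lay between 3.66 and 5.23 RPKM and Hsph1 between 2.31 and 3.23 RPKM. The ranges of Hspa1a and Hspa1l overlapped, but within each sample Hspa1a was above Hspa1l. The ranges of Hspa1l (0.0731 to 0.37 RPKM) and Hspb1 (0 to 0.118 RPKM) overlapped as well. In TCA replicate 3 Hspb1 was the higher of the 2 (0.0877 against 0.0731 RPKM), so their order was not settled beyond their spread. The members together took 0.312% to 0.357% of the counts of a sample, and Hspa8 and Hsp90ab1 accounted for 87.7% to 90.2% of the members' counts. On the RPKM scale, Hspa8 exceeded the sum of Hspa1a and Hspa1b by 129.5 to 199.6 times, and Hsp90ab1 exceeded Hsp90aa1 by 6.63 to 9.63 times. The spread of CPM over all samples was smallest for the abundant members, with a coefficient of variation of 5.82% for Hsp90aa1, 5.96% for Hsp90ab1, 6.54% for Dnajb1 and 7.70% for Hspa8, and largest for the rarest, with 24.9% for Hspa1a, 38.0% for Hspa1l and 57.1% for Hspb1.

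Tβ-MCA was the bile acid with called changes among the chaperones. After 24 h, Hspa8, the constitutive HSP70, was 0.835-fold of PBS, and Hsph1, its HSP110 exchange factor, was 0.785-fold of PBS. No member rose past the threshold. Hspb1 failed the filter on low counts, so 9 of the 10 members were tested, and 2 of these 9 were called at a Benjamini-Hochberg adjusted p under 0.05 in edgeR's quasi-likelihood test, against 7.62% of the 16761 genes tested (745 higher and 533 lower). The median log2 fold change of the 9 members was -0.09, beside 0.00 for all genes tested.

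Hspa8 had 1389, 1464 and 1429 CPM in the PBS samples, against 1099, 1238 and 1236 CPM in the Tβ-MCA samples (here and throughout, in the order of their numbers). Every treated sample lay below every PBS sample, with replicate 3 the lowest. The means were 1427 ± 37.4 CPM with PBS and 1191 ± 79.6 CPM with Tβ-MCA (SD, n = 3), and the log2 fold change was -0.26 (SE 0.065, 95% confidence interval -0.40 to -0.12, edgeR adjusted p = 0.0303).

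Hsph1 had 22.8, 23.7 and 21.8 CPM with PBS and 16.5, 16.6 and 20.5 CPM with Tβ-MCA. The groups did not overlap, although Tβ-MCA replicate 5 came close to the lowest PBS sample. The log2 fold change was -0.35 (SE 0.097, 95% confidence interval -0.55 to -0.14, edgeR adjusted p = 0.0416).

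Hsp90ab1, the constitutive HSP90, had 1541, 1588 and 1623 CPM with PBS and 1694, 1889 and 1747 CPM with Tβ-MCA. All treated samples were above all PBS samples, but the log2 fold change of 0.17 (95% confidence interval 0.03 to 0.30) did not pass the threshold (edgeR adjusted p = 0.117). Over the members, the groups did not overlap for 3 of the 9 genes tested, namely Hspa8, Hsph1 and Hsp90ab1, and the same held for 27% of all genes tested.

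Hsf1 had 10.6, 10.6 and 8.60 CPM with PBS and 7.24, 8.05 and 9.29 CPM with Tβ-MCA, so the groups overlapped. Its log2 fold change was -0.28 (95% confidence interval -0.55 to -0.0027, edgeR adjusted p = 0.196).

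The inducible members gave no call. Hsp90aa1, the inducible HSP90, had 304.6, 255.0 and 280.4 CPM with PBS and 277.4, 257.0 and 262.6 CPM with Tβ-MCA, a log2 fold change of -0.08 (95% confidence interval -0.23 to 0.08). Dnajb1 had 68.1, 66.5 and 60.7 CPM with PBS and 61.9, 54.9 and 66.7 CPM with Tβ-MCA, a log2 fold change of -0.09 (95% confidence interval -0.26 to 0.08). The groups overlapped for both genes.

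Hspa1b had 126, 117 and 130 counts with PBS and 134, 124 and 128 counts with Tβ-MCA. Its log2 fold change of 0.03 had a 95% confidence interval of -0.38 to 0.44. Hspa1a had 34, 64 and 72 counts with PBS and 54, 38 and 93 counts with Tβ-MCA, so that the lowest and the highest values over all samples fell in these 2 groups, and its log2 fold change of 0.10 had a 95% confidence interval of -0.57 to 0.76. With counts this low, a rise of the inducible HSP70 genes by up to 1.36-fold for Hspa1b and 1.69-fold for Hspa1a was within the intervals and was not detectable at this depth.

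Hspa1l had 18, 29 and 34 counts with PBS and 20, 18 and 22 counts with Tβ-MCA, and Hspb1 had 4, 2 and 3 counts with PBS and 4, 4 and 0 counts with Tβ-MCA. No difference was detectable for either gene at this depth.

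**Figure D2:**
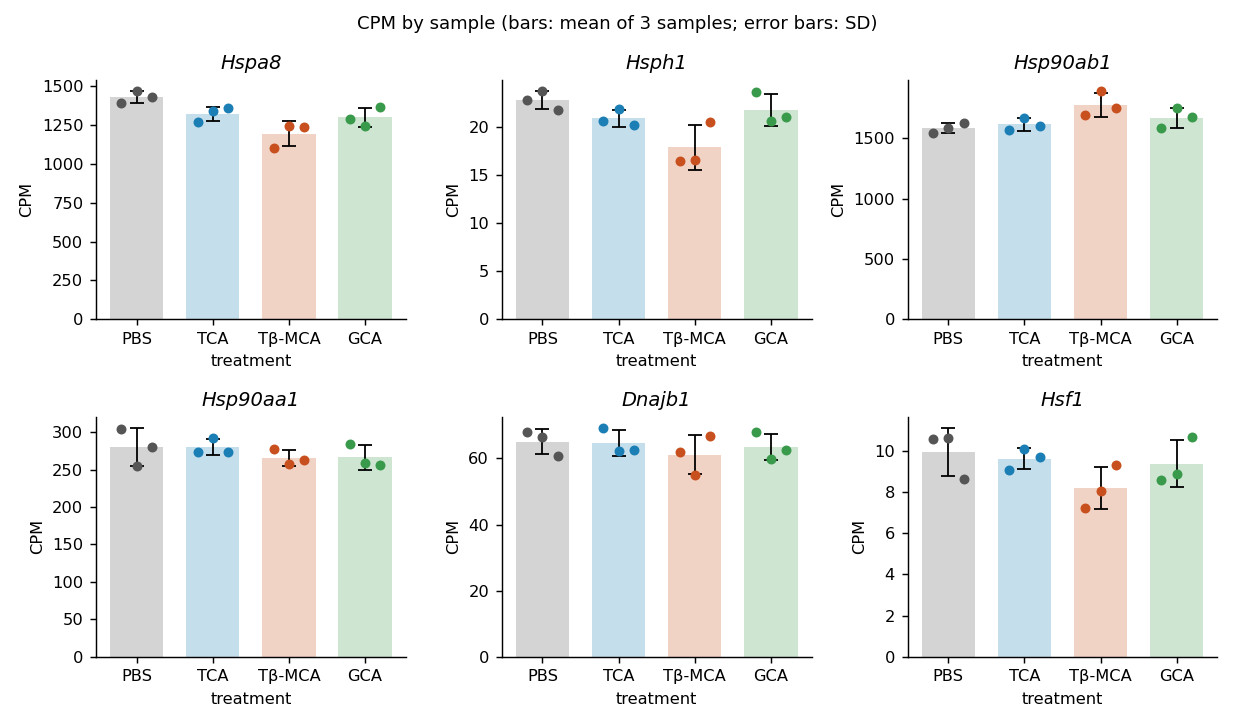
CPM of 6 chaperone genes by treatment, with each sample as a point, bars for the mean of 3 samples and error bars for the SD; the axes start at 0. Hspa8 lay between 1099 and 1238 CPM with Tβ-MCA and between 1389 and 1464 CPM with PBS, while Hsp90aa1 and Dnajb1 overlapped between all groups.

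In the same samples, the summed neutrophil markers were 39880 to 45290 CPM with Tβ-MCA and 49700 to 61350 CPM with PBS. Of the 12 markers, 5 fell at an adjusted p under 0.05 in edgeR and 10 in DESeq2. Over all 16761 genes tested, edgeR called 7.62% and DESeq2 called 2103 genes, in either direction. S100a9 (log2 fold change -0.30, edgeR adjusted p = 0.0631) and Ngp (-0.27, adjusted p = 0.233), which make up most of the sum, were not called by edgeR. Ly6g averaged 9.59 ± 2.90 CPM with Tβ-MCA and 19.1 ± 2.02 CPM with PBS (SD, n = 3). The 13 monocyte and macrophage markers summed to 439.8, 568.0 and 1091 CPM with Tβ-MCA, the last in replicate 5, and to 1286 to 1366 CPM with PBS. Of these markers 1 fell at this threshold in edgeR and 6 in DESeq2. Their median log2 fold change in edgeR was -0.85, and none was at 0 in any sample. The 7 eosinophil and basophil markers summed to 59.1 to 127.0 CPM with Tβ-MCA and 144.1 to 250.0 CPM with PBS. The 6 granulocyte precursor markers had a median log2 fold change of -1.04, with 0 called by edgeR, 4 lower at an unadjusted p under 0.05 and 3 lower in DESeq2. Among them Mpo averaged 77.0 ± 67.2 CPM with Tβ-MCA and 203.4 ± 7.85 CPM with PBS (SD, n = 3), while the cell cycle genes Mki67 and Top2a, which make up most of their summed CPM, had log2 fold changes of 0.02 and 0.09. The 7 B cell markers tested had a median log2 fold change of -0.81, and 1 of them, Cd79a, fell in edgeR. The part of these markers in the lower Hspa8 and Hsph1 was not tested. In bulk samples, fewer cells of a type and less RNA per cell cannot be told apart. Replicate 5 stood nearest to PBS in these sums and in Hsph1 and Hsf1. Without it, Hspa8 (log2 fold change -0.29, edgeR adjusted p = 0.011) and Hsph1 (-0.46, adjusted p = 0.00288) were again the members called, 2 of 9, but 18% of the genes tested in that fit were called as well.

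Both calls were near the threshold. They were lost when total library size replaced the TMM factors (adjusted p = 0.0528 for Hspa8 and 0.0608 for Hsph1), when only the samples of these 2 groups entered the model (0.0855 and 0.105, with 0 genes of the whole table called), and when any single sample other than Tβ-MCA replicate 5 was left out. At the thresholds in the methods of the study, an unadjusted p under 0.05 with a fold change of at least 2, 0 members and 2.95% of the genes tested were called, since the changes of Hspa8 and Hsph1 were smaller than 2-fold.

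The ratio of Hsp90ab1 to Hspa8 RPKM, a measure chosen after the values were seen that does not depend on scaling between libraries, was 1.59, 1.55 and 1.63 in the PBS samples and 2.21, 2.19 and 2.03 in the Tβ-MCA samples. It was 1.77, 1.79 and 1.70 with TCA and 1.77, 2.02 and 1.76 with GCA. The 9 bile acid samples therefore all lay above the 3 PBS samples, which the 3 comparisons share. Hspa8, the denominator, was itself below every PBS sample in CPM with each bile acid, so this separation in part repeats that of Hspa8. How many other pairs of genes separate in this way was not counted. The mean was 34.5% higher with Tβ-MCA, 10.2% higher with TCA and 16.1% higher with GCA, each with p = 0.1 in an exact two-sided permutation test, which is the smallest p that 3 against 3 samples can give and is reached whenever the groups do not overlap, so it adds nothing to that observation. GCA and TCA overlapped (exact permutation p = 0.6). Leaving out single samples kept the difference from PBS between 0.515 and 0.607 for Tβ-MCA, 0.143 and 0.192 for TCA, and 0.173 and 0.3 for GCA. Since none of these groups overlapped with PBS, leaving out a sample could not turn the sign. The ranges therefore give only the size of the differences.

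TCA at 200 μM changed 0 of the 9 members tested at an adjusted p under 0.05, and 0% of all genes tested in edgeR, with 1 member and 546 genes at an unadjusted p under 0.05, and DESeq2 called 0 members and 1 gene. Hspa8 had 1268, 1336 and 1355 CPM with TCA, all below the PBS samples, with a log2 fold change of -0.11 (95% confidence interval -0.25 to 0.02, edgeR adjusted p = 0.9999). Hspa1l had 6, 16 and 16 counts with TCA against 18, 29 and 34 with PBS, a log2 fold change of -1.16 (95% confidence interval -1.95 to -0.37) with an edgeR adjusted p of 0.9999. It was the 1 member past the thresholds in the methods of the study, which 0.465% of the genes tested passed. The antisense gene Gm10501, which shares 1778 exonic bases with Hspa1l, had 9, 20 and 18 counts with TCA and 18, 22 and 26 with PBS. Reads of these 2 genes may not have been separated. Hspa8 and Hspa1l were the members without overlap between the groups in CPM, which 9.67% of the genes tested showed. In RPKM, the highest Hspa8 value with TCA (315.44) reached the lowest with PBS (315.37). The other members had log2 fold changes between -0.12 (Hsph1) and 0.17 (Hspa1a), and those of Hsp90aa1 (0.00), Dnajb1 (-0.01) and Hsp90ab1 (0.03) were near 0, with 95% confidence intervals that spanned -0.18 to 0.16 at most. The sign for Hsp90aa1 turned with total library size in place of the TMM factors (0.0023 instead of -0.0028).

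GCA at 200 μM likewise changed 0 of the 9 members and 0% of the genes tested at an adjusted p under 0.05 in edgeR, with 1 member and 591 genes at an unadjusted p under 0.05, and DESeq2 called 0 genes. Hspa8 had 1283, 1243 and 1363 CPM with GCA, again below every PBS sample, with a log2 fold change of -0.14 (95% confidence interval -0.28 to -0.0007, edgeR adjusted p = 0.999). Hspa1l had 14, 18 and 17 counts, at or below its lowest count with PBS, and a log2 fold change of -0.76 (95% confidence interval -1.52 to 0.01, edgeR adjusted p = 0.999). On the CPM scale these 2 genes did not overlap between the groups, which 9.55% of the genes tested showed, but for Hspa1l the gap lay between 0.51557 and 0.51638 CPM, with 18 counts in both samples, and in RPKM the groups overlapped (0.213 in GCA replicate 4 and 0.204 in PBS replicate 3). Of the members, 0 passed the thresholds of the study's methods, which 0.531% of the genes did. Hsph1 had 23.6, 20.6 and 21.0 CPM, overlapping with PBS, and Hsf1 had 8.56, 8.85 and 10.7 CPM. The median log2 fold change of the members was -0.07 with GCA and -0.01 with TCA, beside 0.00 over all genes in both comparisons.

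Side by side, the log2 fold changes of Hspa8 were -0.26 with Tβ-MCA, -0.11 with TCA and -0.14 with GCA, and 1 of these 3 differences was called. The comparisons share the PBS samples, and the difference between Tβ-MCA and the other bile acids was not tested because the labelled doses differ.

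**Figure D3:**
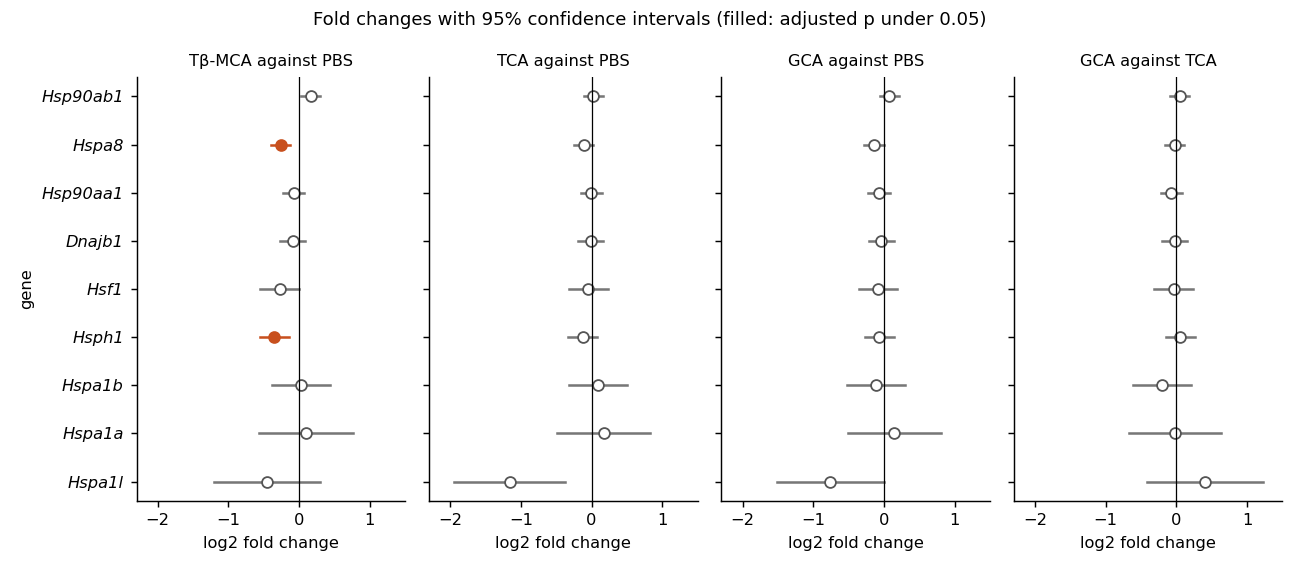
Log2 fold changes (points) and 95% confidence intervals (lines) of the 9 tested chaperone genes in the 4 comparisons, with filled points where the edgeR adjusted p was under 0.05. Filled points stand for Hspa8 (-0.26) and Hsph1 (-0.35) with Tβ-MCA, and the intervals are widest for Hspa1l and Hspa1a.

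TCA and GCA carry the same cholic acid core and differ in the conjugated amino acid, taurine or glycine, and both were used at 200 μM for 24 h, so this 1 pair could be compared directly. 0 of the 9 members and 0% of the genes tested were called at an adjusted p under 0.05 in edgeR, with 0 members and 412 genes at an unadjusted p under 0.05, and DESeq2 called 0 genes. No member was without overlap between the groups (8% of all genes tested), and none passed the fold change thresholds (0.442% of all genes). The log2 difference of GCA from TCA was -0.03 for Hspa8 (95% confidence interval -0.16 to 0.11), 0.05 for Hsp90ab1 (-0.09 to 0.18), -0.07 for Hsp90aa1 (-0.22 to 0.08), -0.03 for Dnajb1 (-0.20 to 0.15), 0.06 for Hsph1 (-0.15 to 0.26) and -0.04 for Hsf1 (-0.31 to 0.23). The intervals were wider for Hspa1b (-0.62 to 0.20), Hspa1a (-0.68 to 0.63) and Hspa1l (-0.42 to 1.23), so differences of this size between the conjugates were not detectable for them.

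The values of the inducible HSP70 genes also carry limits of assignment. The longest reading frames of Hspa1a and Hspa1b differed at 8 of 1926 aligned bases (99.58% identical), and 47.1% of the 100-base windows of the Hspa1a transcript were also present in Hspa1b, so reads could be split between the copies or lost. Hspa1l and Hspa8 were more distant from Hspa1a, with 83.32% and 74.51% identical bases, and the HSP90 genes were 76.37% identical with no shared 100-base window. Counted together, Hspa1a and Hspa1b had 154 to 234 counts per sample, of which Hspa1a took 21.2% to 43.4%, and their sum gave log2 fold changes of 0.05 with Tβ-MCA, 0.12 with TCA and -0.03 with GCA, none called. The correlation of Hspa1a with Hspa1b over the 12 samples was r = -0.03, as a description.

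Hspa1a also contains Gm20481, an antisense gene whose 564 shared exonic bases lie within it. Gm20481 had 6, 28 and 37 counts in PBS replicates 3, 5 and 6 where Hspa1a had 34, 64 and 72, and 12, 15 and 43 counts in the Tβ-MCA replicates where Hspa1a had 54, 38 and 93. With TCA it had 18, 27 and 24 counts beside 56, 77 and 67 for Hspa1a, and with GCA 40, 13 and 29 counts beside 72, 47 and 75. The counts of both genes thus rose and fell together (r = 0.897 over 12 samples that share these bases, as a description), and the count of Hspa1a less that of Gm20481 was 23 to 50, against 34 to 93 for Hspa1a itself. Hspa1l shares 1778 exonic bases with the antisense gene Gm10501, which had 9 to 29 counts and exceeded Hspa1l in most samples. The library kit was stranded, but the sources used here do not give whether strand was used in counting, so reads of a gene and its antisense partner may not have been separated. Hspa8 contains 3 small nucleolar RNA genes on its own strand (Snord14c, Snord14d and Snord14e) with at most 9 counts each, against 36752 or more for Hspa8.

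**Figure D4:**
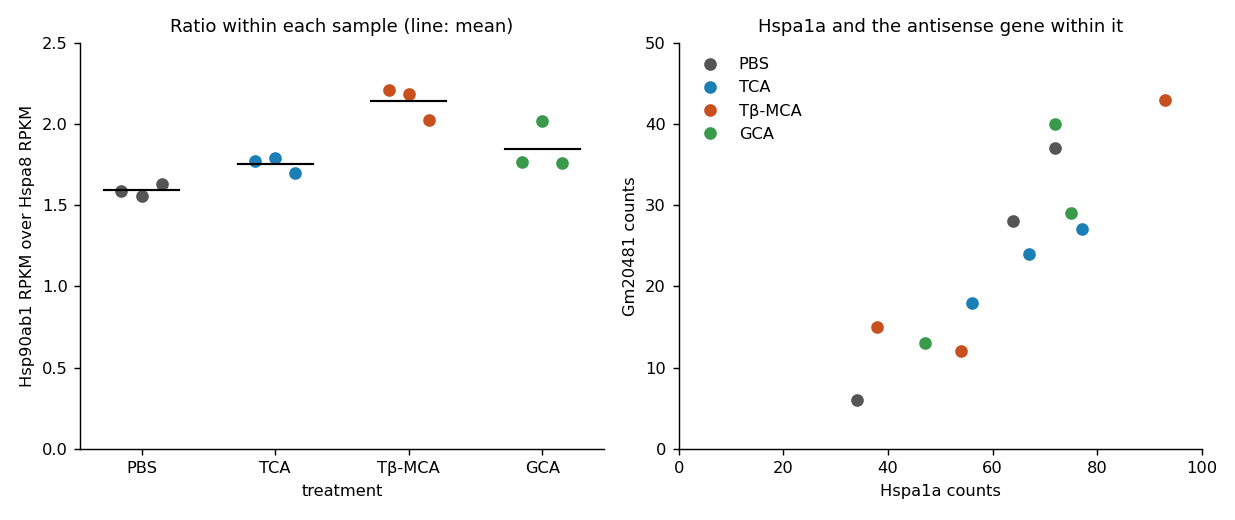
Left, ratio of Hsp90ab1 to Hspa8 RPKM in each sample by treatment, with a line at the mean of 3 samples; right, counts of Gm20481 against counts of Hspa1a in the 12 samples. The PBS samples have the lowest ratios, 1.55 to 1.63, and the counts of Gm20481 tend to be higher in the samples with more Hspa1a counts.

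Other chaperone families were counted to place the members. Among 34 cytosolic co-chaperones and other HSP70 genes tested with Tβ-MCA against PBS, 2 rose and 1 fell at an edgeR adjusted p under 0.05, and the median log2 fold change was 0.00. Over all genes tested, 7.62% were called in this comparison, so calls in this list were about as frequent as in the table as a whole. Hspa14, a ribosome-associated HSP70, rose from 42.3, 39.9 and 42.1 CPM to 69.4, 57.0 and 49.6 CPM (log2 fold change 0.50, adjusted p = 0.0208). Fkbp4, the HSP90 co-chaperone FKBP52, rose from 50.5, 48.6 and 46.8 CPM to 60.9, 60.5 and 54.2 CPM (log2 fold change 0.27, adjusted p = 0.0461). Dnaja4, a J-domain protein, fell from 1.72, 1.77 and 1.86 CPM to 0.449, 0.783 and 1.34 CPM (log2 fold change -1.04, adjusted p = 0.0467).

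Of 8 small heat shock protein genes, 6 were listed and 3 were tested, with 0 called by edgeR or DESeq2 and 0 at an unadjusted p under 0.05. Of 7 heat shock factors and their regulators tested, edgeR called 0, with 2 at an unadjusted p under 0.05, and DESeq2 called 1 higher. The chaperonin CCT and prefoldin list had 1 lower gene of 14, the CCT subunit Cct3 (log2 fold change -0.38, adjusted p = 0.0491), and the mitochondrial chaperones had 1 higher gene of 7, the nucleotide exchange factor Grpel2 (log2 fold change 0.50, adjusted p = 0.0487). With 7.62% of all genes tested called, single calls in lists of this size do not set these lists apart.

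The endoplasmic reticulum chaperones had the lowest median of these lists. Of 10 genes tested, 3 fell and 1 rose, against 7.62% of all genes tested called in either direction. Their median log2 fold change was -0.33, beside 0.00 for all genes tested. Hsp90b1, the endoplasmic reticulum form of HSP90, fell from 1096, 1064 and 1075 CPM with PBS to 662.2, 682.0 and 921.5 CPM with Tβ-MCA (log2 fold change -0.51, adjusted p = 0.0211). The disulfide isomerase genes Pdia4 (-0.48, adjusted p = 0.0206) and Pdia6 (-0.45, adjusted p = 0.0485) also fell, whereas Hyou1, the HSP110 protein of this compartment, rose from 200.8, 204.2 and 206.6 CPM to 351.0, 312.1 and 241.6 CPM (log2 fold change 0.56, adjusted p = 0.0314). Without Tβ-MCA replicate 5, which lay nearest to PBS for the genes just named as well, 7 of the 10 genes fell and 1 rose, in the fit with 18% of all genes called. Without replicate 3 or replicate 4, 0 of the 10 genes were called, and the median was -0.25 and -0.31. None of the calls in these lists held with only the samples of the 2 groups, where 0 genes of the table were called. All 6 lists had 0 calls in edgeR with TCA or GCA against PBS or with GCA against TCA, with at most 1 gene of a list at an unadjusted p under 0.05 in either direction, and 0 calls in DESeq2.

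**Figure D5:**
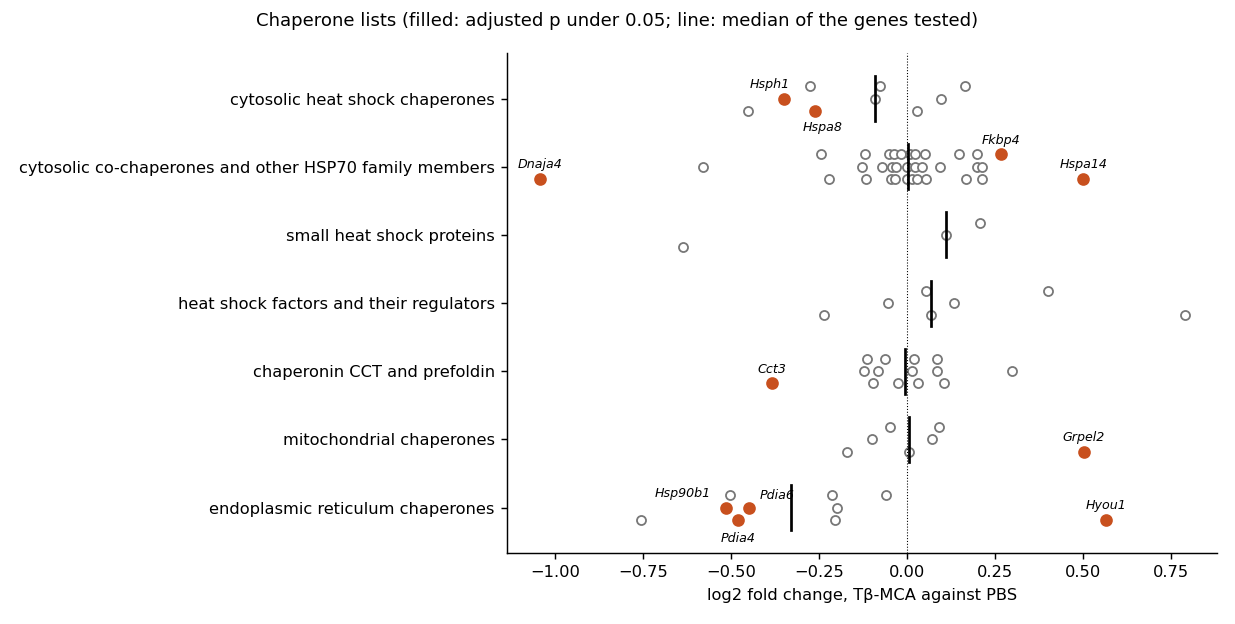
Log2 fold changes with Tβ-MCA against PBS for the tested genes of 7 chaperone lists, with filled points where the edgeR adjusted p was under 0.05 and a line at each list's median. The endoplasmic reticulum list has a median of -0.33, and the cytosolic heat shock chaperones one of -0.09.

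As a description of the pattern over samples, the log2 CPM of the 9 tested members were standardized and averaged. The highest mean was 0.48 in PBS replicate 5 and the lowest were -0.74 and -0.51 in Tβ-MCA replicates 4 and 3, while Tβ-MCA replicate 5 was at 0.23, beside TCA replicate 5 at 0.18 and GCA replicate 5 at 0.21. The genes outside the set most like this mean over the 12 samples were Nol12 (r = 0.954), Ubxn8 (0.946), Ccdc28b (0.941), Gm10244 (0.941) and Snrnp35 (0.940). Between members, Hspa8 varied with Hsf1 (r = 0.776) and Hsph1 (r = 0.750), and Hsp90ab1 varied inversely with Dnajb1 (r = -0.788) and Hsph1 (r = -0.703). These correlations describe 12 libraries that share groups and scaling.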

How the data were processed

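RNA of mouse bone marrow neutrophils was sequenced in 12 samples. The authors deposited raw counts per gene and RPKM values, which scale the counts by merged exon length and library size. The submitters' processing notes name Trimmomatic 0.36, STAR 2.5.3a, featureCounts and Subread 1.5.1 with GRCm38. The use of strand, the treatment of multi-mapped reads and whether pairs or mates were counted are not given in the sources used here; values of 2 were at least 2.93 times as frequent as values of 1 in each sample. RPKM recalculated from the counts differed by at most 1.3e-06 in relative terms. The columns named GA were taken as GCA from the series description.

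Counts were tested with edgeR 4.0.16 (R 4.3.3; TMM, filterByExpr by group, robust quasi-likelihood test, all 12 samples sharing the spread), with Benjamini-Hochberg adjustment over 16761 genes and a threshold of 0.05. CPM used TMM-adjusted library sizes, log2 CPM a prior count of 2, and levels were compared between genes in RPKM. Fewer than 3 counts were taken as not detectable, a limit that covers counting error only. If mates were counted singly, 3 counts could stand for fewer than 3 fragments, and low counts would hold less information than their number. The confidence intervals are those of the edgeR fit and include the spread between samples. The pipeline was tested on simulated data with larger changes than those of Hspa8 and Hsph1, so that test does not bear on calls of their size. The alternatives were DESeq2 1.42.0, total library size, other filters, fewer samples, a replicate block, Hspa1a and Hspa1b summed, and the study's thresholds.

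The members were found by gene name, but they, the lists and the tests were chosen with earlier results of these data known. The genes named are the members, up to 4 called genes of each chaperone list with the lowest p, and the 5 genes most like the members' mean. Promoters came from RefSeq; those of Hspa8, Hsp90aa1, Hsp90ab1 and Hsf1 were not analysed here. Python 3.11.15, biopython 1.88 and matplotlib 3.10.9 were used for sequences and plots.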

Additional observations from a re-analysis of the deposited data

How the results depend on the processing

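The count of members called with Tβ-MCA against PBS, 2 in the main analysis, was 2 with DESeq2 (2103 genes called in all), with no filter (2406), with at least 10 counts in every sample (1342) and with Hspa1a and Hspa1b summed. It fell to 0 with library totals as the scale, in a model of just the compared samples and at an unadjusted p under 0.05 with a fold change of at least 2, and ranged from 0 to 2 without single samples. Without a PBS sample or Tβ-MCA replicate 3 or 4, 0 to 168 genes of the whole table were called. The threshold of the study raised the count with TCA against PBS from 0 to 1 (Hspa1l). With GCA against PBS or TCA it was 0 in every alternative, also without single samples. The cause of these differences was not tested. The log2 fold changes of Hspa8 and Hsph1 with Tβ-MCA stayed negative in all alternatives, between -0.29 and -0.21 for Hspa8 and between -0.46 and -0.29 for Hsph1.

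Directions turned only for small log2 fold changes that were not called. Hsp90aa1 with TCA against PBS, -0.0028 in the main analysis, was 0.0023 with total library size, 0.0018 with no filter and 0.0078 with the replicate block. Leaving out single samples gave ranges that cross 0 with Tβ-MCA for Hspa1a (-0.28 to 0.36) and Hspa1b (-0.0557 to 0.0769). With TCA they did so for Hspa1a (-0.0848 to 0.34), Hspa1b (-0.0626 to 0.27), Hsp90aa1 (-0.0656 to 0.0602), Hsp90ab1 (-0.0023 to 0.0459), Dnajb1 (-0.0617 to 0.0206) and Hsf1 (-0.14 to 0.0051). With GCA against PBS they did so for Hspa1a (-0.11 to 0.31), Hspa1b (-0.30 to 0.0111) and Dnajb1 (-0.0874 to 0.003), and with GCA against TCA for Hspa1a (-0.13 to 0.14), Hspa8 (-0.0632 to 0.0038), Dnajb1 (-0.0761 to 0.0249), Hsf1 (-0.14 to 0.0208) and Hsph1 (-0.0069 to 0.0966).

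The replicate numbers of the labels were tried as a block. Samples with 1 number in different groups deviated from their means with correlations of 0.060 to 0.326 (12 of 15 pairs over 0.1), and a sample correlated best with its own number in 26 of 30 cases, a hint from the data and not from the design. The correlation averaged 0.19 for shared and -0.07 for other numbers, and 7 of the 39 pairs of other numbers were over 0.1. No source says what a number marks, so the numbers were not taken as pairs in the main fit. A spread shared by samples of 1 number may therefore remain in that fit. The number 6 occurs only in PBS, so the block fits that sample exactly. The PBS level in this fit thus rests on replicates 3 and 5. With the replicate block, 2 members and 1498 genes were called with Tβ-MCA against PBS (edgeR adjusted p = 0.018 for Hspa8 and 0.0444 for Hsph1), and no call of a member changed. The block moved the log2 fold change of Hspa1a against PBS from 0.10 to 0.39 with Tβ-MCA, from 0.17 to 0.54 with TCA and from 0.15 to 0.48 with GCA, none called. PBS replicate 6, which carries no weight in this fit, had 72 Hspa1a counts, the highest with PBS.

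Counts of 34 to 93 for Hspa1a, 6 to 34 for Hspa1l and 0 to 4 for Hspb1 set the precision for these genes.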
